A study of Mus musculus with 5 samples.

Results

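The proteasome is the cylindrical protease that degrades ubiquitin-tagged proteins. Its core particle stacks rings of alpha subunits, which gate the entry, on rings of beta subunits, of which Psmb5, Psmb6 and Psmb7 carry the catalytic sites. The regulatory particle has a base, with a ring of ATPases that unfold the substrate, and a lid, which removes ubiquitin. In cells exposed to interferon gamma the 3 catalytic subunits can be replaced by Psmb8, Psmb9 and Psmb10, the immunoproteasome subunits, which are kept apart here. Members were the 45 genes, of 18193 with a probe set of a single symbol, whose symbol starts with Psma, Psmb, Psmc, Psmd, Psme, Psmf or Psmg and a digit, without Psmb8, Psmb9, Psmb10, Psme1 and Psme2. They had 98 of the 45101 probe sets on the array.

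Expression was measured on 5 Affymetrix arrays of mouse CD4+ T cells with a transgenic T cell receptor specific for MOPC315, a myeloma of BALB/c mice. All cells came from adult (7 to 12 weeks) T cell receptor-transgenic SCID mice on the Balb/c background, whose SCID mutation removes other T and B cells. The 3 activated samples were independent experiments, each on pooled draining axillary lymph nodes taken on day 8 after 100000 MOPC315 cells in 250 µl of Matrigel were placed under the skin of 12 to 15 mice. These cells were sorted as CD4+ and GB113+, with 95% or more of the sorted cells carrying both. The 2 naive samples were independent experiments on pooled lymph nodes of naive mice of the same kind, handled in the same way. No group given Matrigel alone was analysed here. In such bulk samples, fewer cells of a type and less RNA per cell cannot be told apart.

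Each array gave an intensity for every probe set, and differences are activated minus naive on the scale of log2(intensity + 16). The number of arrays limits their precision. T cell transcripts were present on every array: the summed intensity of the 6 T cell markers on the array, such as Cd3e and Cd4, was 11231 to 12943 in activated cells, against 11764 to 11888 in naive cells. Single markers differed within this sum: Cd5 was called higher, at 1.85, and Thy1 lower, at -0.79, and the other T cell markers were not called. The 5 proliferation markers tested were all called higher in activated cells, and their summed intensity was 5596 to 6616 against 2171 to 2486. Activated replicate 1 held more transcripts of other cells: its summed intensity of 7 myeloid markers was 2712, against 135 to 794 on the other activated arrays and 182 to 341 with naive cells, and that of 7 dendritic and class II markers was 3564, against 278 to 430 and 172 to 295. Its 5 granulocyte markers summed to 916 and its 3 NK cell markers to 616, against 34.7 to 95.3 and 47.8 to 205 on the other 4 arrays. Both CD8 T cell markers together gave 271 to 406 in activated cells, against 852 to 1040 in naive cells. Most of this was Cd8b1, which was called lower, at -1.61. Cd8a overlapped between the groups, with 79.2, 24.4 and 18.7 in activated against 54 and 44.6 in naive cells. The thymocyte marker Dntt measured 46.4, 21.3 and 28.1 in activated cells, against 497 and 429 in naive cells, while Rag1 and Rag2 were not above the filter. Of the exocrine pancreas markers, 5 of 7 on the array summed to 170 to 212 against 242 to 249. Ctrb1 and Cela3b were called lower, at -1.10 and -1.81, and Cela1 lay at -0.40, not called. Prss2 went the other way without overlap, with 131, 160 and 151 in activated against 97.2 and 82.5 in naive cells. Its difference was 0.63, not called. The 4 B cell markers on the array summed to 37.8 to 44.7 on every array, and none of the marker lists' genes was at exactly 0. The 5 plasma cell markers summed to 1256 to 1392 in activated cells, against 1249 to 1370 in naive cells. Of these, Irf4 was called higher, at 2.49, and Prdm1 lower, at -1.11. Sdc1, Xbp1 and Jchain, at -0.86, -0.05 and 0.27, were not called. The ratio of the 3' to the 5' beta-actin control probe set, a measure of RNA integrity, was 1.19, 1.29 and 1.25 with activated cells, against 1.42 and 1.78 with naive cells; for Gapdh it was 0.74, 0.71 and 0.68 against 0.74 and 0.79. The bioC hybridisation control was high on activated replicates 1 and 2 and naive replicate 1 and low on the other 2 arrays. This split was found in the data, at the largest gap between the arrays. The labels do not give it, and its origin is unknown. Differences on its high and low side are given for the genes called and for the members as a whole. The part of proliferation, of RNA from other cells or tissues, of the thymocyte marker and of RNA integrity in the results below was not tested.

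Most proteasome transcripts had somewhat higher levels in the activated cells, but few passed the test. Of the 45 members, 43 lay above the 40th percentile of the array on at least 2 arrays and were tested, and 36 of them had a difference above 0, against 46.9% of the 12860 genes tested. The median difference was 0.27, with quartiles of 0.08 and 0.41, against -0.03 over all genes tested. With all probe sets of a gene averaged, the members' median was 0.14. Only 2 members passed limma's moderated test at an adjusted p under 0.05, Psmd2 and Psmd8, both higher; 6.37% of all tested genes were called higher and 4.14% lower. The share of members called higher was 4.65%, but it was 18.6% against 8.48% of all genes with the bioC split as a block. With the replicate number as a block it was 20.9% against 7.57%, but these numbers do not pair the samples, which are independent experiments. Activated replicate 3, with no naive partner of its number, adds nothing to the differences of that fit. None of these differences in share was tested. In 22 members all 3 activated arrays lay above both naive arrays, against 20.3% of all tested genes, and 0 members had the reverse order, against 20.7%. At an unadjusted p under 0.05, 12 members were higher and 0 lower, where 12.8% of all tested genes were higher and 1479 of the 12860 were lower. No member differed by 2-fold or more, as 6.1% of all tested genes did. All fitted differences of members lay between -0.18 and 0.84, with an SD among members of 0.26 against 0.56 over all tested genes.

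**Figure D1:**
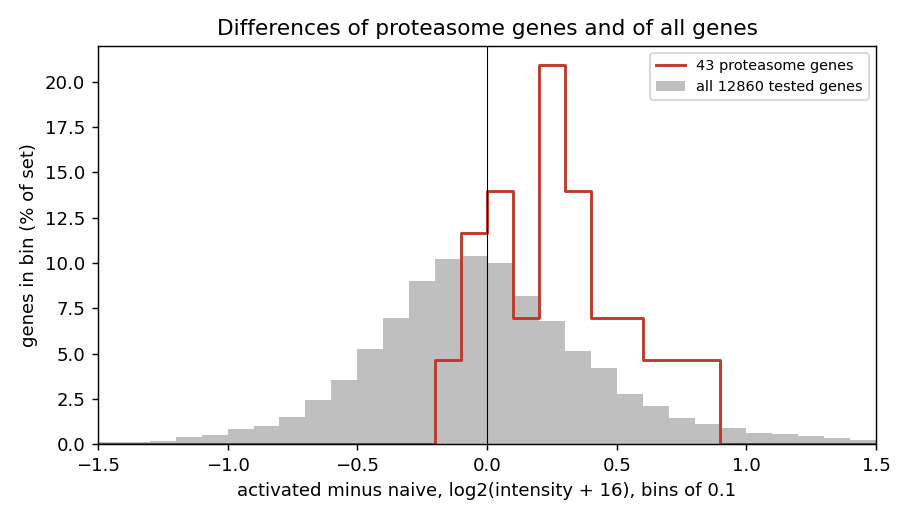
Share of genes (%, vertical axis) by fitted difference, activated minus naive on the log2(intensity + 16) scale in bins of 0.1 (horizontal axis, shown from -1.5 to 1.5), for 43 proteasome genes (red line) and all 12860 tested genes (grey bars). The proteasome genes sit to the right of the centre of all genes, with medians of 0.27 and -0.03, and none passes 0.84.

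Psmd2, a scaffold subunit of the base that binds ubiquitin shuttle factors, had the largest difference. It measured 1032, 752 and 763 in intensity in activated cells, against 471 and 451 in naive cells. All activated arrays lay above both naive ones, and activated replicate 1 was the highest. The difference was 0.84 ± 0.18 (SE, adjusted p = 0.013), a fold of 1.80, with 0.88 on the high and 0.74 on the low side of the bioC split. Psmd8, a lid subunit, measured 676, 651 and 645 in activated cells, against 400 and 379 in naive cells. The activated values lay close together and well above the naive ones, with a difference of 0.73 ± 0.15 (SE, adjusted p = 0.01), a fold of 1.66, with 0.71 and 0.74 on these sides. Psmd2 lost its call without naive replicate 1, at 0.88 (adjusted p = 0.063), and without naive replicate 2, at 0.81 (adjusted p = 0.099). Averaging it with its dim second probe set, which was listed at intensities of 4.7 to 14.5 on the 5 arrays, gave 0.43 (adjusted p = 0.17). Psmd8, which has 1 probe set, lost its call without activated replicate 2, at 0.74 (adjusted p = 0.054), and without naive replicate 2, at 0.70 (adjusted p = 0.084).

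The DNA just upstream of the start sites is shown for these 2 called genes and for Psmb5 and Psmb6, catalytic subunits that both hold the core of an antioxidant response element. That element binds Nfe2l1 and Nfe2l2, factors known to drive proteasome genes. Each sequence is the 250 bases before the start site in RefSeq, build GRCm38.p6, in lower case with the matches to any of the 4 motifs searched in capitals.
Psmd2, chr16:20651402-20651651, plus strand: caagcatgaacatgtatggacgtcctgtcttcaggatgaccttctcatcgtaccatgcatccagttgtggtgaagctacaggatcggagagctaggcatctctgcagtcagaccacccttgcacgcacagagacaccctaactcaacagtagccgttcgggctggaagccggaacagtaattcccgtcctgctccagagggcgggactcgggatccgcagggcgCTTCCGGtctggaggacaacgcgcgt
Psmd8, chr7:29180674-29180923, minus strand: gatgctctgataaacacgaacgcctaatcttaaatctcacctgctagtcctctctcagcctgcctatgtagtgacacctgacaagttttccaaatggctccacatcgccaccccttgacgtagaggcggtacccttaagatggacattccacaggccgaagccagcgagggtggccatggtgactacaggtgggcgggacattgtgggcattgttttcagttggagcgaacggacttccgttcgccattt
Psmb5, chr14:54617996-54618245, minus strand: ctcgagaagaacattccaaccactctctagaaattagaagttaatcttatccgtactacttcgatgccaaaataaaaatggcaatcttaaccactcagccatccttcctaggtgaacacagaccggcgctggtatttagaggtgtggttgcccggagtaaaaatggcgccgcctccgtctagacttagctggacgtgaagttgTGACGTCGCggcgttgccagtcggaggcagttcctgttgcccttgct
Psmb6, chr11:70525107-70525356, plus strand: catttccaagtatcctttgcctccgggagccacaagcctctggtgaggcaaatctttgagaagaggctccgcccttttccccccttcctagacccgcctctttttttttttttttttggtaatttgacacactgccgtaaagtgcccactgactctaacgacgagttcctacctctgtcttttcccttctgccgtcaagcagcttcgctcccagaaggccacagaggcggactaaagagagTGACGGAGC

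The capitals in Psmb5 and Psmb6 mark TGACNNNGC, the antioxidant response element core, which starts 47 bases before the Psmb5 start site and 9 before that of Psmb6. Those in Psmd2 mark CCGGAAG on the reverse strand, a binding motif of ETS factors, 26 bases before the start. Psmd8 holds none of the motifs in this window. Both strands were searched, also for CCAAT, bound by NF-Y, and CACGTG, the E-box, and no matches of different motifs overlapped in the member promoters. RefSeq promoters were found for 36 of the 43 tested members. Of these, 13.9% held the antioxidant response element core, as did 13.9% of the 10393 tested genes with a promoter. The CCAAT motif was in 38.9% against 39.9%, and the E-box in 11.1% against 9.63%. The ETS motif was in 13 of the 36, or 36.1%, against 14.9% of tested genes. It was in 41.2% of the 17 members with a promoter whose groups did not overlap and in 31.6% of the 19 others. Psmb5 and Psmb6, which share the core of the antioxidant response element, had differences of 0.52 and 0.03. Psmc6, Psmd9 and Psmd12 also held it, with differences of 0.08, 0.33 and 0.25. No promoter was found for the catalytic subunit Psmb7. Whether the core bears on these differences was not tested.

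In the alpha ring, 6 of 7 subunits had a difference above 0 and 0 were called, with a median of 0.17. Of all tested genes, 46.9% had a difference above 0 and 6.37% were called higher. In 20.3% all activated arrays lay above both naive ones. The same shares apply to each subunit group below. Psma4 measured 2006, 2120 and 1389 in activated cells, against 1274 and 999.8 in naive cells. The groups did not overlap, with activated replicate 3 nearest to the naive arrays, and the difference was 0.67 ± 0.21 (SE, adjusted p = 0.072). Psma1 had 1798, 1831 and 1788 against 1259 and 1280. Both groups were tight and apart, with a difference of 0.50 ± 0.15 (SE, adjusted p = 0.057). It passed in 4 of 18 alternative settings, and was turned to -0.11 when averaged with its 3 dimmer tested probe sets. The other alpha subunits overlapped between the groups on the probe set used. Psma5, Psma6 and Psma7 had differences of 0.22, 0.17 and 0.12. A second probe set of Psma5 and 1 of Psma6 were higher without overlap, at 0.42 and 0.26. Dimmer probe sets of these genes lay below 0, at -0.39 for Psma5 and -0.13 and -0.09 for Psma6. Psma2, whose intensities were 2108, 2711 and 2597 against 2368 and 2534, lay at 0.0046, with an interval at 95% from -0.37 to 0.38. Psma3 lay at -0.10 (adjusted p = 0.76), with an interval at 95% from -0.46 to 0.26. Its other tested probe set, dimmer, lay at -0.66 with overlap.

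The beta ring had the widest range, from -0.09 to 0.82, with a median of 0.42 and 0 of 7 subunits called. Among the catalytic subunits, Psmb7, which carries the trypsin-like activity, measured 1650, 2056 and 1159 in activated cells, against 1214 and 645 in naive cells. Activated replicate 3 lay below naive replicate 1, so the groups overlapped, although the difference was 0.82 ± 0.29 (SE, adjusted p = 0.1). Within the bioC split the order held: 1650 and 2056 stood against 1214 on the high side, and 1159 against 645 on the low side. The size of the difference turned on single arrays: it was 0.38 without naive replicate 2, 1.27 without naive replicate 1 (adjusted p = 0.038) and 1.04 without activated replicate 3 (adjusted p = 0.045). Psmb5, with the chymotrypsin-like activity, had 904, 814 and 636 against 577 and 499.8. Its groups did not overlap, and the difference was 0.52 ± 0.18 (SE, adjusted p = 0.11). Psmb6, with the caspase-like activity, had 653, 540 and 427 against 497 and 542, with values of both groups mixed. Its difference was 0.03, with an interval at 95% from -0.39 to 0.46.

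Among the structural beta subunits, Psmb2 had 391, 233 and 338 in activated against 176 and 189 in naive cells. Every activated array lay above the naive ones, with a difference of 0.73 ± 0.21 (SE, adjusted p = 0.058). Psmb2 passed in 5 of 18 alternative settings. The groups of Psmb1, at 1563, 1967 and 1678 against 1218 and 1362, did not overlap either, and it differed by 0.42 ± 0.16 (SE, adjusted p = 0.15). Its dimmer tested probe sets overlapped, at 0.20 and -0.39. Psmb3 lay at 0.06 and Psmb4 at -0.09. The second tested probe sets of Psmb3 and Psmb4 lay at 0.39 and 0.30, so the value of these subunits turns on the probe set used.

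The ATPases that thread substrates into the core varied less, from -0.02 to 0.36, with 0 of 6 called and a median of 0.18. Psmc5 had intensities of 545, 454 and 531 against 420 and 368, a difference of 0.36 ± 0.16 (SE, adjusted p = 0.21). Psmc3 had 938, 891 and 788 against 748 and 691, a difference of 0.27. The groups of both did not overlap. Psmc1 had a difference of 0.29 with overlapping groups, since 386 on activated replicate 2 lay just below 391 on naive replicate 2. Psmc2, Psmc6 and Psmc4 lay at 0.09, 0.08 and -0.02. A second probe set of Psmc2 and 1 of Psmc4 were higher without overlap, at 0.25 and 0.20. The remaining tested probe sets of Psmc2 and Psmc6 overlapped, at 0.05 to 0.26.

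The other subunits of the base all had activated arrays above both naive ones on the probe set used, as did 20.3% of all tested genes. Beside Psmd2, the scaffold subunit Psmd1 had 443, 511 and 377 in activated against 369 and 242 in naive cells, a difference of 0.53 ± 0.21 (SE, adjusted p = 0.14). Its nearest values, 377 and 369, were close, and came from opposite sides of the bioC split. Its difference was 0.25 without naive replicate 2 and 0.82 without naive replicate 1. The ubiquitin receptor Psmd4 had 717, 792 and 716 against 669 and 599, a difference of 0.22. Of its other tested probe sets, 1 was higher without overlap, at 0.41. Another, dim at 15.7 to 30.8, was lower without overlap, at -0.24.

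In the lid, 7 of 8 subunits had a difference above 0, against 46.9% of all tested genes, with a median of 0.32. In 5 the activated arrays lay above both naive ones, against 20.3%, and Psmd8 was called higher, against 6.37%. Psmd7, the partner of the deubiquitinase, had 407, 327 and 270 against 249 and 179.8, a difference of 0.60 ± 0.21 (SE, adjusted p = 0.1). Its 2 other tested probe sets were dim, with activated means of 30.9 and 3.63 against naive means of 47.6 and 14.1, and lay the other way, at -0.45 and -0.63. Psmd14, the deubiquitinase itself, had 1541, 1545 and 1409 against 1024 and 1312, a difference of 0.36 ± 0.17 (SE, adjusted p = 0.21). Psmd13 and Psmd12 had differences of 0.35 and 0.25, again with no overlap. Psmd3, at 0.30, Psmd11, at 0.10, and Psmd6, at -0.05, overlapped. The other tested probe sets of Psmd11 and Psmd13 overlapped too, at -0.21 to 0.32 and at 0.01 to 0.11. The second tested probe set of Psmd6 was higher without overlap, at 0.23.

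**Figure D2:**
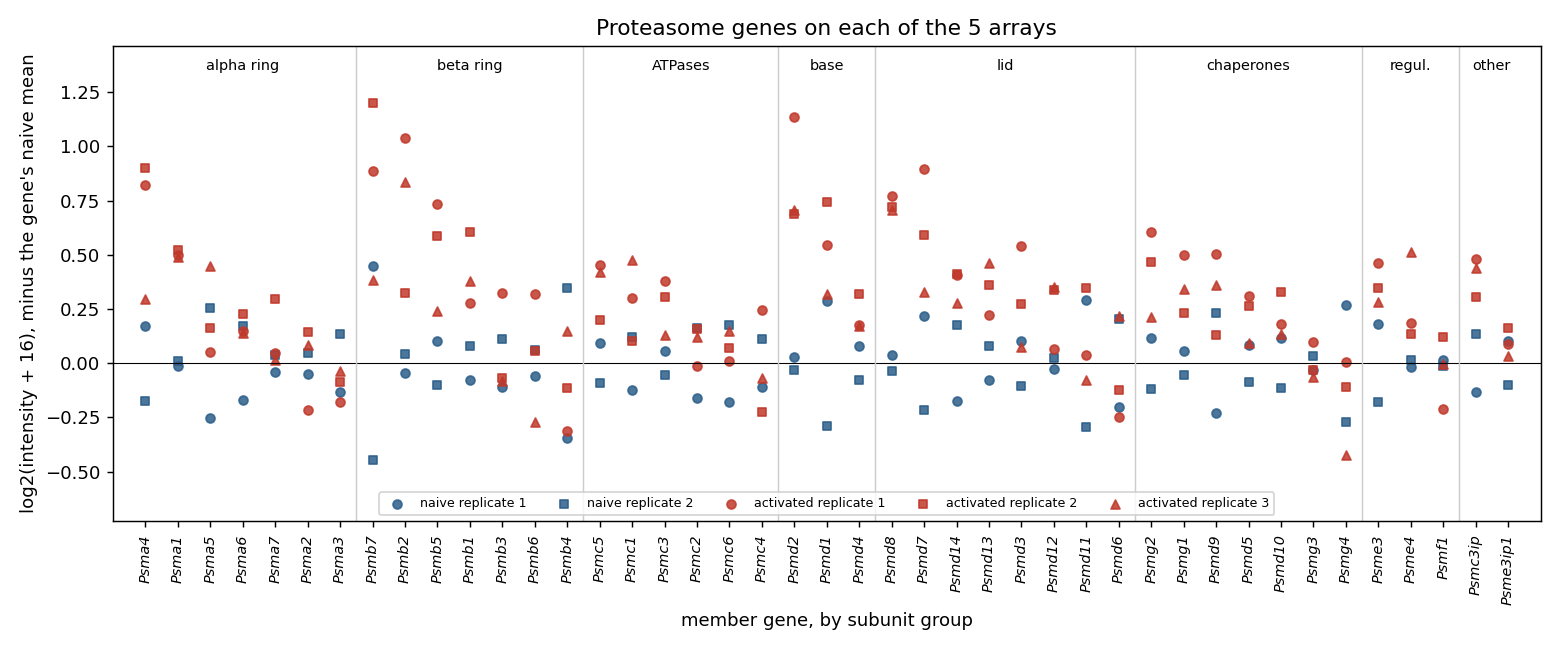
Each of 43 proteasome genes (horizontal axis, by subunit group and then by difference) on the 5 arrays, as log2(intensity + 16) minus the gene's mean over the 2 naive arrays (vertical axis); red symbols are the 3 activated and blue symbols the 2 naive arrays, with the shape giving the replicate. Red lies above blue without overlap in 22 genes, Psmd2 and Psmd8 among them, while Psma2, Psmb6 and Psmd6 mix both groups.

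The chaperones that build the particle and leave it had a median of 0.22, with 0 of 7 called. Psmg1 and Psmg2 pair to assemble the alpha ring. Psmg1 had 455, 376 and 406 in activated against 330 and 305 in naive cells, a difference of 0.36 ± 0.16 (SE, adjusted p = 0.21). Psmg2 had 512, 463 and 386 against 361 and 304, a difference of 0.43 ± 0.18 (SE, adjusted p = 0.17). Neither overlapped between groups on the probe set used. Other tested probe sets of Psmg2 overlapped, at 0.10 and -0.17. The other pair of alpha ring chaperones, Psmg3 and Psmg4, lay at -2.0e-04 and -0.18, and overlapped. Of the chaperones of the base, Psmd5 and Psmd10 had differences of 0.22 and 0.21 with no overlap, and Psmd9 had 0.33 with overlap. The dimmer tested probe sets of Psmd9 also overlapped, at 0.11 and -0.33.

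The activator Psme3, which caps the core in the nucleus, had 204, 188 and 179 in activated against 165 and 125 in naive cells, a difference of 0.36 ± 0.18 (SE, adjusted p = 0.25). Its second tested probe set lay at 0.68. The activator Psme4 had 584, 564 and 738 against 506 and 518 on its brightest probe set, a difference of 0.28 with no overlap. The inhibitor Psmf1 had 158, 203 and 185 against 188 and 184, with mixed groups and a difference of -0.03. All 4 tested probe sets of Psmf1 lay below 0, the lowest at -0.81.

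Some genes that the symbol rule takes are not constitutive subunits. Psma8, a testis form of an alpha subunit, and Psmb11, the thymic catalytic subunit, were at or under intensities of 13.3 and 9.0 on all 5 arrays and did not reach the level for testing. Psmc3ip, a partner of meiotic recombinases, and Psme3ip1, an interaction partner of Psme3, carry the names of subunits they bind. Psmc3ip had 87.4, 75.5 and 84.5 in activated against 51.5 and 65.3 in naive cells. Its groups did not overlap, with a difference of 0.41 ± 0.19 (SE, adjusted p = 0.23), and Psme3ip1 lay at 0.09. Counting neither these nor the chaperones, activators and inhibitor, the 31 subunits of the core and the regulatory particle had a median difference of 0.27. Of them 27 were above 0, against 46.9% of all tested genes, and 15 were higher without overlap, against 20.3%.

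**Figure D3:**
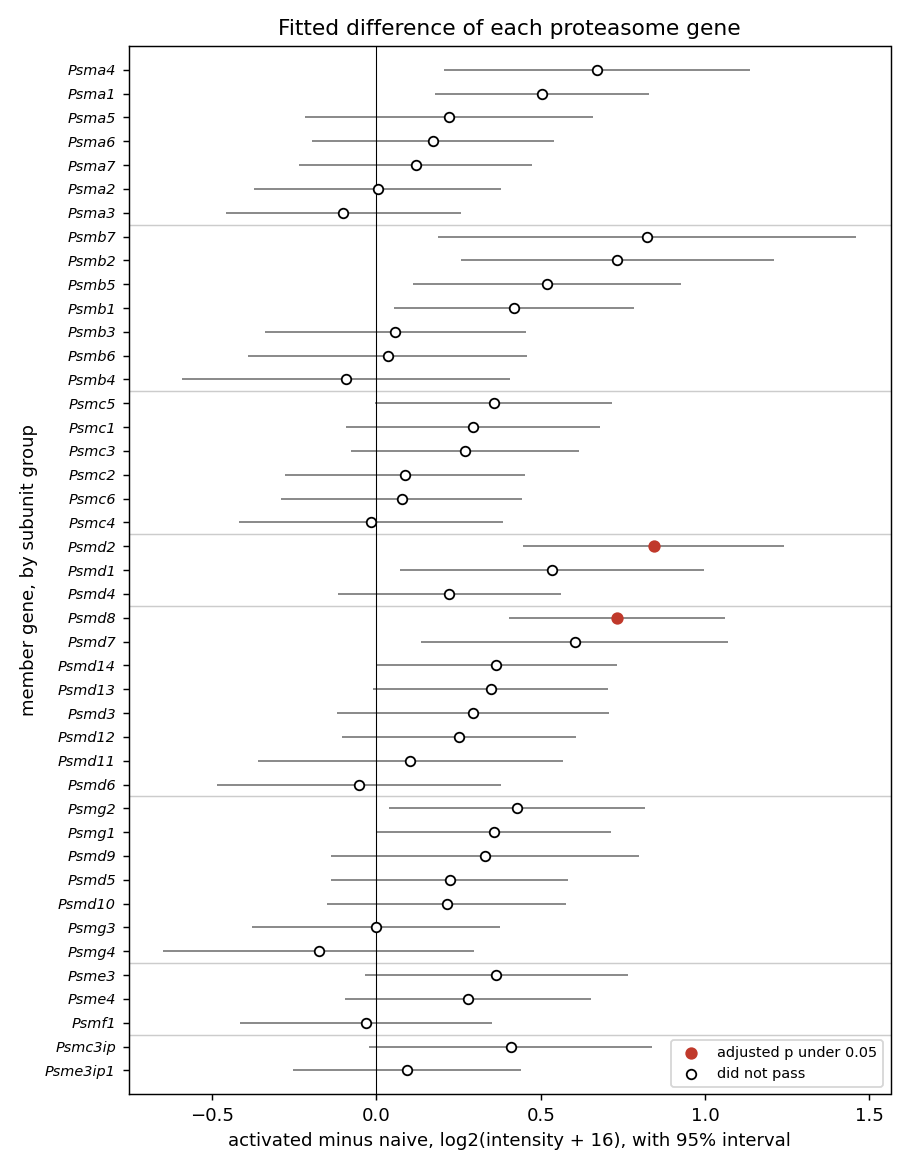
Fitted difference of each of 43 proteasome genes (vertical axis, by subunit group) as activated minus naive on the log2(intensity + 16) scale, with its 95% interval (horizontal axis); red points passed an adjusted p under 0.05 and open points did not. Psmd2, at 0.84, and Psmd8, at 0.73, are the 2 red points, and the lowest is Psmg4, at -0.18.

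Most members were higher in activated cells on both sides of the bioC split. On the high side, activated replicates 1 and 2 against naive replicate 1, 39 of 43 members were higher, with a median difference of 0.25 against -0.04 over all tested genes. On the low side, activated replicate 3 against naive replicate 2, 32 were higher, with a median of 0.22 against -0.03. These comparisons share no array and have no replicate check of their own. In 30 members the difference was above 0 on both sides, against 32.2% of all tested genes. Psma3 and Psmg4 were the 2 members below 0 on both. Psmb6 differed most between the sides, at 0.25 and -0.33, followed by Psmd14, at 0.58 and 0.10, and these differences were not tested. With the split as a block, 8 members were called higher and 0 lower, against 8.48% of all tested genes called higher and 6.68% lower. They were Psma1, Psma4, Psmb2, Psmb5, Psmb7, Psmd2, Psmd7 and Psmd8. With the replicate number of the labels as a block, the same 8 and Psmd1 were called higher, 9 in all and 0 lower, against 7.57% and 6.17% of all tested genes. Activated replicate 3 has no naive partner of its number, so that fit takes each difference from the other 4 arrays. Among the genes above the 60th percentile of the array, all 43 members included, 4 were called higher and 0 lower, against 9.37% and 6.48%. Without activated replicate 1, which held the most transcripts of other cells, the median of the members was 0.25 (0.245) and 2 were called higher, with 676 of all tested genes. Without naive replicate 2, 0 members and 463 of all tested genes were called higher, and without activated replicate 3, 5 members and 703 of all, against 2 members and 819 of all with the 5 arrays.

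**Figure D4:**
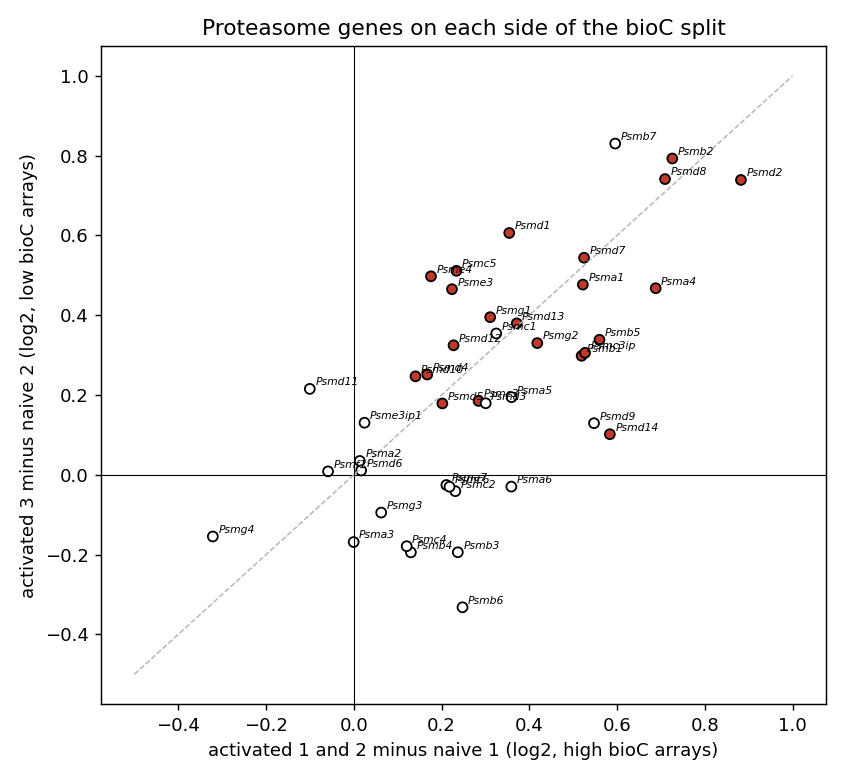
Difference of each of 43 proteasome genes on the arrays with high bioC control (horizontal axis, activated replicates 1 and 2 minus naive replicate 1, log2) and with low bioC control (vertical axis, activated replicate 3 minus naive replicate 2, log2); red points are the 22 genes whose groups do not overlap, and the dashed line is equality. The upper right quadrant holds 30 genes, while Psmb6 lies at 0.25 and -0.33.

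Taken probe set by probe set, the shift was smaller. Of the 98 probe sets, 90 lay above the filter, with a median difference of 0.14 against -0.01 over 23698 tested probe sets. Of them 3 were called higher, against 5.58% of all probe sets, and 1 lower, against 3.07%. In 32 the activated arrays lay above both naive arrays, against 20.6%, and in 7 below, against 19.4%. The difference was above 0 in 62, against 49% of all probe sets, and above 0 on both sides of the bioC split in 49, against 33.1%. Of 23 members with more than 1 tested probe set, 14 had probe sets on both sides of 0. Psme4 had called probe sets in both directions. One had 216, 257 and 267 in activated against 160 and 127 in naive cells, a difference of 0.72 ± 0.19 (SE, adjusted p = 0.041). Another had 43.8, 44.2 and 68.9 against 95.1 and 122.8, a difference of -0.88 ± 0.23 (SE, adjusted p = 0.044). On the high and low side of the bioC split the first lay at 0.52 and 0.98 and the second at -0.89 and -0.71. The first lost its call when any single array was left out, at 0.57 to 0.87. The second lost it without any one array but activated replicate 3, at -1.04 to -0.72. Both also lost it with median centring (adjusted p = 0.052 and 0.06), without the filter (0.066 and 0.11) and without the variance trend (0.078 and 0.063).

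Of the 4 immunoproteasome genes with a probe set of their own, 0 were called and the median difference was -0.03. Psmb8 had 2283, 2208 and 1805 in activated against 2234 and 1947 in naive cells, a difference of 0.0013 with an interval at 95% from -0.38 to 0.38. A probe set that matches both Psme2 and Psme2b, and so measures neither alone, read 2803, 2671 and 2063 against 3574 and 2912, with no overlap, and was not tested. Psmb9 lay at -0.0055 and the activator subunit Psme1 at -0.06. Psmb10 had 939, 699.7 and 694 against 1158 and 1190, with all activated arrays below the naive ones and a difference of -0.60 ± 0.18 (SE, adjusted p = 0.058). Psmb10 passed, as lower, with the bioC split as a block (adjusted p = 0.022), with quantile normalization (0.047), with the filter at the 60th percentile (0.049), with the mean of all probe sets (0.048), with array weights (0.043) and without activated replicate 1, at -0.74 (adjusted p = 0.026). The log2 ratio of a constitutive catalytic subunit to its immune counterpart within each array was compared for the 3 pairs. For Psmb7 over Psmb10 it was 1.42 higher in activated cells, and for Psmb5 over Psmb8 it was 0.52 higher, both with no overlap between groups. For Psmb6 over Psmb9 it was 0.04 higher, with overlap. With Psmb8 at 0.0013, the second ratio moved as Psmb5 alone did. An exact two-sided permutation test gave p = 0.2 for the first 2 pairs, which is the smallest that 3 against 2 arrays allow, and p = 1 for the last (0.3, 0.3 and 1 after Benjamini-Hochberg adjustment over the 3 pairs). The test could therefore not pass 0.05, and the ratios were chosen after the data were seen. How often ratios of other gene pairs do not overlap was not examined.

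Some other genes of the pathway were called, in both directions, where 6.37% of all tested genes were called higher and 4.14% lower. The same shares apply to each list below, and no list was tested against them. Of 14 tested factors that associate with the proteasome, 0 were called higher and 1 lower, with a median of -0.04. The one was Ubqln2, a shuttle for ubiquitinated proteins, at -0.75 ± 0.20 (SE, adjusted p = 0.038). Pomp, the chaperone that completes the core, had 1332, 1426 and 1402 in activated against 973 and 1094 in naive cells, a difference of 0.42 with no overlap (adjusted p = 0.12). Of 9 tested genes of the p97 system, which extracts ubiquitinated proteins for the proteasome, 1 was called higher and 0 lower. This was the segregase Vcp, with 1800.0, 1540 and 1384 against 1089 and 951, a difference of 0.61 ± 0.17 (SE, adjusted p = 0.045). Ubqln2 lost its call without activated replicate 1 or 2 or naive replicate 2, at -0.63, -0.73 and -0.52. Vcp lost it without any one array but activated replicate 3, at 0.51 to 0.71. On the high and the low side of the bioC split Ubqln2 lay at -0.66 and -0.70 and Vcp at 0.60 and 0.53.

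Of 9 tested regulators linked to proteasome transcription, 1 was called higher and 2 lower, with a median of -0.33. Nfe2l2, the oxidative stress factor, had 311, 273 and 294 in activated against 504 and 566 in naive cells, a difference of -0.84 ± 0.16 (SE, adjusted p = 0.0068). Keap1, which targets it for degradation, had 198, 233 and 196 against 351 and 436, a difference of -0.86 ± 0.17 (SE, adjusted p = 0.01). Both lost the call without naive replicate 2, at -0.76 and -0.71. On the high and low side of the bioC split Nfe2l2 lay at -0.76 and -0.91, Keap1 at -0.67 and -1.09 and Nfyb, described next, at 0.64 and 0.54. Nfe2l1, the factor that restores proteasome genes when the proteasome is inhibited, had 93.2, 103.9 and 103.1 against 97.6 and 111.1, with mixed groups and a difference of -0.05. Nfyb, a subunit of the factor that binds CCAAT, was called higher, at 0.61 ± 0.17 (SE, adjusted p = 0.042). It lost its call when any array was left out, at 0.51 to 0.67.

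Of 7 tested peptidases that trim the products of the proteasome, 1 was called higher and 0 lower, with a median of 0.33. It was the leucine aminopeptidase Lap3, with 169, 157 and 116 in activated against 74.4 and 70.5 in naive cells, a difference of 0.87 ± 0.20 (SE, adjusted p = 0.02). Of the 10 tested subunits of the COP9 signalosome, a complex built like the lid, 2 were called higher and 0 lower, with a median of 0.16. Cops6 had 984, 719 and 779 against 496 and 471, a difference of 0.74 ± 0.17 (SE, adjusted p = 0.022). Cops2 had 598, 680 and 724 against 442 and 398, a difference of 0.65 ± 0.16 (SE, adjusted p = 0.028). On these sides Lap3 lay at 0.98 and 0.61, Cops6 at 0.74 and 0.71 and Cops2 at 0.51 and 0.84. Lap3 lost its call without activated replicate 1 or 2 or any naive array, at 0.77 to 0.90. Cops6 lost it without activated replicate 1 or any naive array, at 0.62, 0.78 and 0.71, and Cops2 without activated replicate 2 or 3 or any naive array, at 0.57 to 0.72. Of the genes of ubiquitin and its activating enzymes only Uba6 had a probe set of its own, at 0.06. With all probe sets of a gene averaged, the calls of Ubqln2, Vcp, Nfe2l2, Keap1, Nfyb, Cops2 and Cops6 were lost, at -0.41, 0.26, -0.66, -0.31, 0.31, 0.45 and 0.53, and that of Lap3 was kept. Median centring ended the calls of Ubqln2, Vcp, Nfyb and Cops2 (adjusted p = 0.081, 0.058, 0.073 and 0.058). Testing without the filter ended those of Ubqln2, Vcp, Nfyb and Lap3 (0.08, 0.081, 0.058 and 0.05), and testing without the variance trend those of Ubqln2, Vcp, Nfyb, Cops2 and Cops6 (0.091, 0.1, 0.094, 0.076 and 0.063). Whether any of these lists differs from the proteasome genes was not tested.

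**Figure D5:**
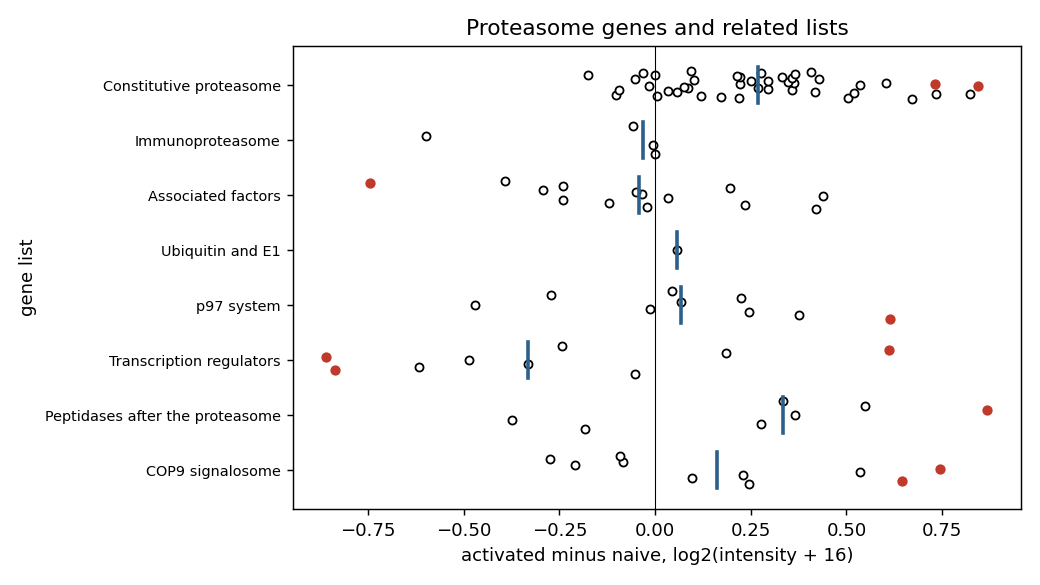
Fitted difference (horizontal axis, activated minus naive, log2(intensity + 16)) of the tested genes of each list (rows); red points passed an adjusted p under 0.05, open points did not, and blue bars are list medians. The median is 0.27 for the proteasome genes, -0.03 for the immunoproteasome and -0.33 for the transcription regulators.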

How the data were processed

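The authors deposited linear intensities, 1 for each probe set of an array; per the labels' protocols, 6 µg of total RNA per sample was made into biotin-labelled cRNA. How probes were summarised is not given in the sources used here. All arrays have a trimmed mean of 100.0, so differences are relative to the average probe set. Of 45101 probe sets, 34945 had 1 symbol in the platform annotation, 932 several and 9160 none. For each gene the probe set with the highest mean log2(intensity + 16) was used; a gene was tested if it lay above its array's 40th percentile on at least 2 arrays. The fit was limma 3.58.1 (R 4.3.3) on group, with lmFit and eBayes with an intensity trend, two-sided, with Benjamini-Hochberg adjustment over 12860 genes (or 23698 probe sets) and a threshold of 0.05. Code was tested on simulated data. Members, lists and motifs were chosen with earlier results of these data known. All members are named; in other lists, the 2 largest called differences each way, the immunoproteasome genes with a probe set of their own, and Pomp, Nfe2l1 and Uba6, added after their values were seen. The ratios of catalytic pairs were added after seeing the data. Symbols of lists were updated through RefSeq (GRCm38.p6). Alternatives covered scaling, filter, pseudocount, probe sets, variance model, array weights, blocks and leaving out each array. The replicate number does not pair the samples, which are independent experiments. Protein sequences were not used here.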

Additional observations from a re-analysis of the deposited data

How the results depend on the processing

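Up to 18 alternatives were run on the gene-level results and 17 on the probe set results. No member was called lower in any of them, 25 members kept their direction in all and 18 turned at least once. The count of members called higher was 2 as reported, where 819 of all tested genes were called higher. It was 4 with the 60th percentile filter, where 9.37% of all genes tested were called higher. With the mean of all probe sets it was 1, against 852 of all genes. With the bioC split as a block it was 8, against 8.48% of all genes. With 1 activated array left out it was 2 to 5, against 520 to 703 of all genes. The replicate number as a block gave 9 genes called higher, against 7.57% of all genes, and 7 probe sets. The numbers do not pair the samples, which are independent experiments. Over all genes, the deviations of activated replicates 1, 2 and 3 correlated with those of naive replicate 2 at -0.17, -0.13 and 0.31. With 2 naive arrays, the values for naive replicate 1 are the same with the sign turned. These correlations therefore cannot decide how samples pair. The median of the members, 0.27, was 0.14 with the mean of all probe sets and 0.25 to 0.27 with 1 array left out. The count of probe sets called higher, 3 as reported, was 0 without the variance trend, 8 with the bioC block and 0 to 4 with 1 activated array left out. The counts over all probe sets under these settings are not given here. Calls over all genes moved with the setting too: 661 were higher without the variance trend and 1090 with the bioC block, against 819 as reported. The count of member probe sets called lower, 1 as reported, was 2 with quantile normalization and with the bioC block. It was 0 with median centring, without a filter and with a pseudocount of 1, and 0 to 1 with 1 activated array left out. Over all genes, 859 were lower with the bioC block, 393 with median centring and 349 without a filter, against 533 as reported. Differences turned sign for Psmg3 with quantile normalization (0.023), median centring (5.0e-04) and a pseudocount of 64 (1.0e-04). With the mean of all probe sets they turned for Psma1 (-0.11), Psmb4 (0.10), Psmc4 (0.094), Psmd11 (-5.0e-04), Psmd6 (0.088), Psmd7 (-0.16), Psmg3 (0.0079) and Psmb8 (-0.29). Without probe sets of shared sequence they turned for Psma5 (-0.39), Psmb1 (-0.39), Psmb4 (0.30), Psmc4 (0.20), Psmd11 (-0.077) and Psmd6 (0.23). Array weights turned Psmf1 (0.0028) and Psmb9 (0.012). The replicate block turned Psma2 (-0.035), Psmc4 (0.0095), Psmg3 (0.032) and Psmb9 (0.091), and the bioC block Psmb6 (-7.0e-04), Psmd6 (0.014) and Psmb8 (-0.043). With 1 array left out, the sign turned within the ranges of Psma2 (-0.066 to 0.11), Psma3 (-0.23 to 0.032), Psma5 (-0.033 to 0.47), Psmb3 (-0.077 to 0.17), Psmb4 (-0.44 to 0.25), Psmb6 (-0.11 to 0.19), Psmc2 (-0.074 to 0.25), Psmc4 (-0.15 to 0.095), Psmc6 (-0.10 to 0.25), Psmd11 (-0.19 to 0.40), Psmd6 (-0.26 to 0.15), Psme3ip1 (-0.0068 to 0.19), Psmf1 (-0.11 to 0.058), Psmg3 (-0.048 to 0.032), Psmg4 (-0.45 to 0.095), Psmb8 (-0.097 to 0.11), Psmb9 (-0.058 to 0.091) and Psme1 (-0.17 to 0.0054). The fits that leave out a naive array rest on 1 naive array, assumed to vary like the activated ones. The cause of these changes was not tested. With 5 arrays, small differences of members could not be told from the spread between arrays.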
